A study of Danio rerio with 16 samples.

Results

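The genes described here are 3949 zebrafish genes listed in the deposited tables of 4 RNA-seq libraries but absent from the tables of the embryos at 24 hours post fertilization (hpf). They were chosen by gene ID alone, as IDs present in the count table of the 5-day larvae and absent from those of the 24 hpf samples, so no measured value entered the choice. They make up 3949 of the 32313 genes listed for the 4 libraries. The other 28364 IDs are listed in both sets of tables and serve as the comparison below, as shared genes. A further 127 of the 28491 IDs in the 24 hpf tables have no counterpart in the 4 libraries.

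All animals were wild-type zebrafish of the AB strain, with no treatment given in the labels. The 4 libraries that list the genes come from a pool of embryos whose title gives 16 to 36 hpf and whose stage label gives 16 somites to 24 hpf, from larvae at 5 days, from the entire adult head and from the entire adult tail. Each of these groups is 1 library, so no test between groups was possible, and every ratio below compares libraries, not conditions, with a 95% interval that covers counting error only. The 24 hpf group has 3 biological samples, but it does not list these genes and enters only where another of its genes lies at the same place.

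A genome annotation is a list of gene models laid over an assembled sequence, and a sequencing read can be counted only where a model exists. Early zebrafish models came largely from automatic pipelines, and manual curation of sequenced clones later added genes, split merged models and renamed others. Many names starting with si: were given by the Sanger Institute's annotators to genes on such clones and carry no statement of function. Gene families that lie in tandem arrays, such as vitellogenins, immunoglobulin segments and odorant receptors, are hard to model automatically.

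The 3949 genes have the highest identifiers of the 4 libraries. The number in their Ensembl IDs runs from 91856 to 95975, and all 3949 lie above 91855, the highest number in the 24 hpf tables. None of the 28364 shared IDs does. By name, 2598 of the 3949 (65.8%) carried an si: name, against 4.98% of the shared genes. Ordinary symbols were held by 557 (14.1%, against 66.8% of the shared genes), 426 were named after a sequence accession, 275 had a name of the form "1 of 2" and 87 a zgc: name, given to genes known from cDNA clones.

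The genes were shorter and more clustered than the shared ones. Their listed interval had a median of 3480 bases, against 10010 bases for the shared genes. For 53.7% of them the listed gene just before or just after on the chromosome was another of the 3949. This held for 20.5% of all listed genes with a neighbour. Chromosome 4 held the most, 485 (12.3% of the 3949), and chromosome 22 held 347, which were 26.8% of its listed genes. Chromosome 17 held 25, or 2.42% of its genes, and the mitochondrial genome none. In order of start position, the longest uninterrupted run was on chromosome 3, starting at 34048542 (Zv9). It held 23 genes from ighm, the immunoglobulin M heavy chain, to ighv13-2, a variable segment. The furthest end in it, 34145441, is that of ighm. The ighm interval also spans shared genes and the start of a further run of 12 at 34140564. Other runs held 18 genes on chromosome 22 from 19493979 to 19736079 and 16 on chromosome 10 that included trace amine-associated receptors.

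Absence of an ID from the 24 hpf tables did not always mean absence of the place. Of the 3949 listed intervals, 1191 (30.2%) overlapped at least 1 base of an interval in the 24 hpf tables, 943 by 50% of their length or more, and 696 lay wholly inside one. Only 8 matched an interval exactly. The remaining 2758 (69.8%) overlapped none. A gene of the same symbol under another ID was present in the 24 hpf tables for 244 of the 3949, and for 119 of these the pair of intervals overlapped. These overlaps ignore strand, include genes nested in introns and use the intervals as listed, which can be wider than a gene: that of tpt1, on chromosome 1, spans 97746 bases and starts at the same base as pibf1 in the 24 hpf tables.

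Some of these pairs were plain replacements. The efemp2 interval on chromosome 14 (31539290 to 31573704), a gene for an extracellular matrix protein, covered 99.99% of the 24 hpf gene efemp2 at 31542540 to 31573706, which had 84.9 ± 15.4 CPM (SD, n = 3; CPM is the count scaled to a common library size). The dyrk2 interval, for a protein kinase, covered the whole of a 24 hpf gene dyrk2 with 67.0 ± 1.76 CPM (SD, n = 3). Under their new IDs efemp2 had 1625, 349, 269 and 83 counts in the pool, larval, head and tail libraries, and dyrk2 had 829, 788, 398 and 209. For ighm the replaced gene spanned 34049962 to 34145441, overlapped 35 of the 3949 genes and was near 0 at 24 hpf, with 0.119 ± 0.0857 CPM (SD, n = 3). In all, 36 of the 127 IDs found only in the 24 hpf tables (28.3%) overlapped one of the 3949. Among all 28491 IDs in the 24 hpf tables, 1076 (3.78%) did. Of the 3949, 73 (1.85%) overlapped an ID found only in the 24 hpf tables. Levels under the old and the new IDs come from different gene models and were not compared.

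Sequencing depth was similar among the 4 libraries. Counts on genes totalled 11045403 in the pool, 8532429 in the larvae, 8017208 in the head and 8376307 in the tail. Levels are given as CPM scaled by the trimmed mean of M-values (TMM). On this scale 3 counts, the fixed floor to which lower counts were set for calls, equal 0.304, 0.314, 0.341 and 0.393 CPM. Scaling by library totals in place of TMM moves all log2 ratios by 0.33 for larva over pool, -0.03 for head over larva, -0.30 for tail over larva and 0.27 for head over tail. In whole bodies and body parts, fewer cells of a type and less RNA per cell cannot be told apart.

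The genes took a smaller share of the counts in the pool and larvae than in the adult libraries. They held 170046 counts in the pool, or 1.54% of all counts on genes (exact 95% binomial interval 1.53 to 1.55%), and 123677 in the larvae, or 1.45% (1.44 to 1.46%). The head had 284580 (3.55%, 3.54 to 3.56%) and the tail 543745 (6.49%, 6.47 to 6.51%). The yolk precursor genes vtg1, vtg5 and vtg7 accounted for 42.5% of these counts in the head and for 63.8% in the tail. Without those 3 genes the shares were 1.54%, 1.45%, 2.04% and 2.35%, in the same order of libraries. The contrast was smaller in the deposited FPKM, of which the set held 5.53, 4.76, 6.11 and 6.40%, with the vitellogenins of the set listed at 0 in both adult libraries.

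**Figure D1:**
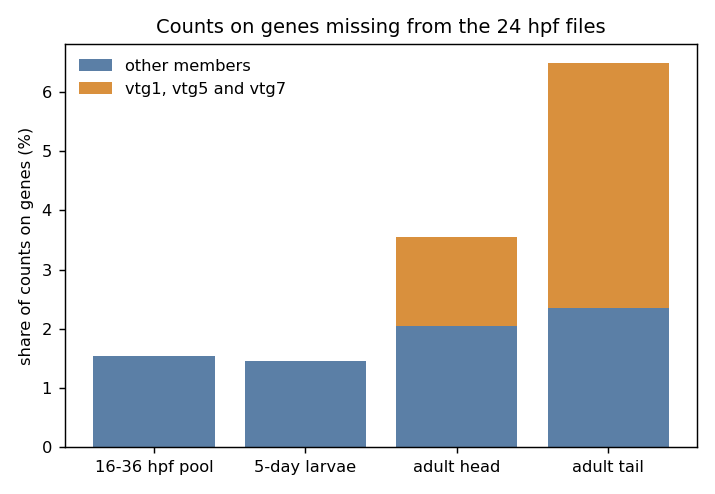
Share of all counts on genes (%, y axis) that fell on the 3949 genes in each of the 4 libraries, stacked as vtg1, vtg5 and vtg7 (orange) and all other genes of the set (blue). The whole bars reach 1.54, 1.45, 3.55 and 6.49%, and the blue parts 1.54, 1.45, 2.04 and 2.35%.

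By counts, under 50% of the genes were detected in any 1 library. At least 1 count was found for 1383 of the 3949 in the pool (35.0%), 1531 in the larvae (38.8%), 1780 in the head (45.1%) and 1624 in the tail (41.1%), where the shares over all 32313 listed genes were 69.0, 71.7, 73.9 and 70.0%. An FPKM above 0, in contrast, was listed for 2062, 2270, 2490 and 2262 genes of the set, or 52.2, 57.5, 63.1 and 57.3%. Counts in all 4 libraries were found for 986 genes (25.0%), against 67.6% of the shared genes. At the other end 1714 (43.4%) were at 0 in all 4, against 18.3% of the shared genes. Those with a count had few: the median ran from 7 to 8 counts per library, against 76 to 98 for shared genes with a count. Of the 2758 genes that overlapped no 24 hpf interval, 1577 (57.2%) had a count somewhere.

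**Figure D2:**
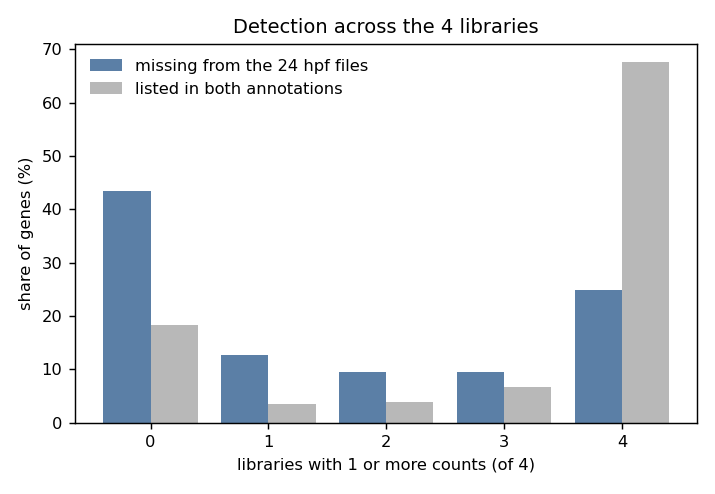
Share of genes (%, y axis) by the number of the 4 libraries in which a gene had 1 or more counts (x axis), for the 3949 genes (blue) and the 28364 shared genes (grey). The set is highest at 0 libraries (43.4%) and the shared genes at 4 libraries (67.6%).

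Much of the set's signal came from a few genes. The 10 genes with most counts held 52.6% of the set's counts in the pool, 42.1% in the larvae, 67.5% in the head and 74.8% for the tail library, the vitellogenins described below included. The protein-coding gene si:dkey-151g10.6 on chromosome 23 (25592769 to 25593942) had 21777, 11490, 11302 and 5889 counts in the pool, larval, head and tail libraries, the most in the pool, and its length-corrected level there was 3087 FPKM. The next, tpt1, which encodes the translationally controlled tumour protein, had 19130, 14610, 15516 and 10625 counts, or 1496 FPKM in the pool. The selenium carrier of plasma, selenoprotein P (sepp1a), was the most even of these, with 6951, 8584, 6818 and 5967 counts, or 705, 897, 776 and 781 CPM. Its head-to-tail ratio was 0.99 (0.96 to 1.03), so under TMM the 2 adult libraries did not differ beyond counting error. Scaling by library totals moves this log2 ratio by 0.27, which is outside that interval, so the evenness depends on the scaling.

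Between the adult libraries and the larvae, vtg1 and vtg5 were among the genes that differed most; they and vtg7 encode vitellogenins, the yolk precursor proteins that the liver of egg-laying vertebrates secretes and growing oocytes take up. In the pool, larval, head and tail libraries vtg1 had 3, 52, 99639 and 280531 counts, or 0.304, 5.44, 11334 and 36739 CPM. The counts of vtg5 were 0, 4, 14340 and 39166, and those of vtg7 were 30, 47, 6950 and 27463. Both adult libraries stood far above the embryo and larva for all 3 genes, and the tail above the head. The tail level was 3.24 times the head level for vtg1 (3.22 to 3.27), 3.15 times for vtg5 (3.08 to 3.21) and 4.55 times for vtg7 (4.43 to 4.67), and the head level of vtg1 was 2085 times that of the larva (1590 to 2792).

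These genes lie side by side on chromosome 22, vtg1 at 25203434 to 25210659, vtg5 at 25223570 to 25230256 and vtg7 at 25323696 to 25330520. Between them lies si:rp71-23d18.2, with 0, 1, 919 and 2555 counts, and si:rp71-23d18.4, at 0 in all 4 libraries. The 24 hpf tables list 1 long gene named vtg1 there, from 25203631 to 25330515, with 137, 151 and 18 counts in the 3 samples (2.43 ± 1.75 CPM, SD, n = 3). The copies resemble one another, so reads shared between them may have been dropped or split, and the order of their levels is uncertain. No level per length can be given, since the deposited FPKM of all 5 genes is 0 in the head and tail with the status HIDATA, which marks loci with too many fragments to be estimated.

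Of 19 liver genes found in the tables, 3 are in the set: vtg1, vtg5 and an entry named hp. This hp entry had 106, 124, 94 and 176 counts in the pool, larval, head and tail libraries. The other 16 include vtg2 and vtg3, which are listed in both annotations. The summed level of these 16 was 2104 CPM in the pool, 2398 in the larvae, 8283 in the head and 25241 in the tail, but vtg2 and vtg3 made up 5583 CPM of it in the head and 18094 CPM in the tail. Without them, a choice made after seeing the data, the 14 remaining liver genes summed to 2104, 2396, 2700 and 7147 CPM, so the head was close to the larvae and the tail above both. The part of liver in the vitellogenin values was not tested.

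Of the 4 libraries, the tail stood apart for the most genes. Among the 856 genes of the set with 20 or more counts in some library, 127 (14.8%) were at least 4-fold higher in the tail than in each of the other 3 libraries, with counts under 3 set to 3. Among the 19938 listed genes with 20 or more counts in some library the share was 6.10%. The head stood above the others for 39 genes (4.56%, all genes 2.84%), the pool for 20 (2.34%, all genes 1.65%) and the larvae for 8 (0.935%, all genes 0.396%). Of the 127 tail genes, 83 carried si: names, 93 overlapped no 24 hpf interval and 52 had 3 counts or fewer in each other library. Over the whole set 65.8% carried si: names and 69.8% overlapped no 24 hpf interval, so the first 2 counts are near the set's own make-up. No count like the 52 was made over all 1216 listed genes that met the tail rule. It therefore cannot be read as particular to the set. Together the 127 tail genes held 125154 counts, or 23.0% of the set's counts in the tail. One of them is vtg7, and the other 126 held 97691 counts (18.0%), a choice made after seeing the data.

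Of the 127 tail genes, 41 lay within 100 kb of another. For the head this held for 8 of 39, for the pool 4 of 20 and for the larvae 0 of 8. A longer list gives more such pairs, and the whole set is clustered. The count was not made over all 1216 listed genes that met the tail rule. Closeness therefore cannot be read as particular to the tail genes of the set. The group with most counts, on chromosome 24 from 9777357 to 9815242, holds zgc:171977, zgc:152652, si:ch211-146l10.7 and si:ch211-146l10.5, all protein-coding. They summed to 8, 6, 20 and 28991 counts in the pool, larval, head and tail libraries. Nearly everything came from the tail, where si:ch211-146l10.5 alone had 10726 counts against 7 in the head, a ratio of 1764 (856 to 4389). All 4 overlapped genes in the 24 hpf tables, and si:ch211-146l10.5 lay almost wholly inside zgc:173856, which had 0.505 ± 0.202 CPM there (SD, n = 3).

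In further groups the tail was likewise the highest library. On chromosome 21, from 42053487 to 42072198, si:dkey-229d11.5, si:ch211-263m18.4 and si:dkey-229d11.3 summed to 8, 4, 12 and 20594 counts, and none overlapped a gene of the 24 hpf tables. With its larval count of 0 set to 3, the tail level of si:dkey-229d11.5 was 3406 times that of the larvae. The lower interval limit from the count of 0 was 2769. Its tail level was 1878 times that of the head (804 to 5785). On chromosome 9, from 8414062 to 8445893, si:dkey-90l23.1, si:ch1073-75o15.4, zgc:113984 and si:ch1073-75o15.3 summed to 7, 1, 12 and 9857. Smaller groups were si:dkey-88l16.4, si:dkey-88l16.3 and si:dkey-88l16.5 on chromosome 10, with 3, 7, 9 and 5580 counts, and 3 genes named TTF1 on chromosome 5, with 139, 55, 58 and 795.

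Single tail genes with known roles were fewer. A gene for haspin, the kinase that marks histone H3 in mitosis, is listed as GSG2 and had 312, 58, 6 and 915 counts. Its tail level was 19.8 times that of the larvae (15.1 to 26.2). Against the pool it was under 4-fold higher, at 119.8 CPM in the tail and 31.7 CPM in the pool, so GSG2 did not meet the tail rule. The gene si:dkey-167i21.2, with the thymosin symbol tmsb5 in the gene name table but listed by RefSeq as a long noncoding RNA, had 0, 1, 1 and 2653 counts. The only egg-coat gene of the set, zp3c, was noticed after its values were seen; of the 15 egg-coat genes listed it is the 1 in the set, with 1, 1, 1 and 2216 counts, or 290 CPM in the tail. Zinc finger genes, which mostly encode DNA-binding proteins, numbered 36 in the set, of which 18 had a count. They summed to 407, 189, 213 and 700 counts. Of all listed genes with 20 or more counts in the tail or the larvae, 15.8% were over 4-fold higher in the tail. Of the 5 zinc finger genes of the set with such counts, 4 were. One of these, znf653, had 57, 31, 19 and 263 counts.

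The tail library also held oocyte transcripts. Of a list of 26 oocyte markers 21 were found, none of them in the set, and their summed level was 28.2 CPM in the pool, 10.1 in the larvae, 10.4 in the head and 9244 in the tail. Of the 21, 20 had counts in the tail, among them the egg-coat gene zp3a.1 with 10990 and zar1, a maternal-effect gene, with 4724; figla, a transcription factor of oocytes, was at 0 in all 4 libraries. The part of oocytes in the levels of the 127 genes was not tested.

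**Figure D3:**
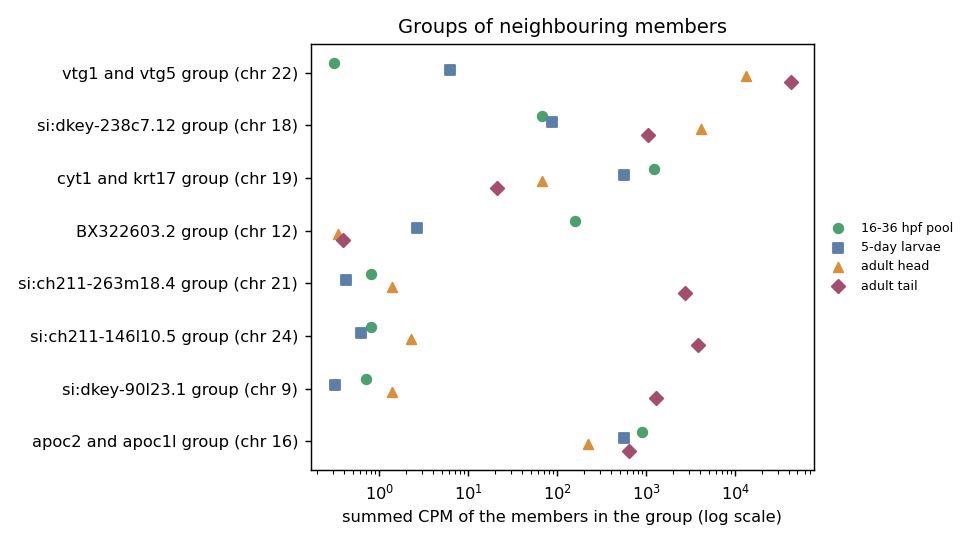
Summed CPM (log axis) of 8 groups of neighbouring genes of the set, each within 100 kb of the named gene, with 1 marker per library; values below 3 counts are drawn at 3 counts. The chromosome 21, 24 and 9 groups have their tail marker far to the right of the other 3; the chromosome 18 group is highest in the head and the chromosome 12 and 19 groups in the pool, at 1217 CPM against 558 in the larvae for chromosome 19.

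Among groups of head genes, that with most counts was on chromosome 18. There 5 neighbours lay in a row between 7029381 and 7056956, and none overlapped a 24 hpf gene. They summed to 660, 837, 36180 and 8004 counts in the pool, larval, head and tail libraries. Of these 5, 3 were 4-fold or more higher in the head than in each other library. A smaller head group lay on chromosome 19, from 8487302 to 8573252, with 1, 3, 90 and 13 counts. RefSeq lists si:dkey-238c7.12, si:dkeyp-1h4.9 and si:dkey-238c7.13 as long noncoding RNAs. The first, si:dkey-238c7.12, had 599, 429, 25001 and 4176 counts, a head level 63.4 times that of the larvae (57.6 to 69.9) and 5.20 times that of the tail (5.03 to 5.37), and reached 3586 FPKM in the head. Next to it si:dkeyp-1h4.9 had 15, 225, 5250 and 1123, and si:dkey-238c7.13 had 2, 5, 4607 and 2528, a head level only 1.58 times that of the tail (1.51 to 1.66). By contrast si:dkeyp-1h4.8 had 27, 47, 901 and 0. With its tail count of 0 set to 3, its head level was 261 times that of the tail. The lower interval limit from the count of 0 was 212.

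Several head-high genes have known roles in the eye, in muscle or in immunity. A mitochondrial protein known from zebrafish cone photoreceptors is encoded by es1, which had 5, 2, 2162 and 0 counts. With its tail count of 0 set to 3, its head level was 626 times that of the tail. The lower interval limit from the count of 0 was 509. The lens epithelial gene lenepl had 1, 10, 557 and 3 counts, 60.6 times higher in the head than in the larvae (32.7 to 127). The myosin heavy chain gene myha had 146, 183, 2784 and 753 counts, and IFITM1, an interferon-induced membrane protein, had 2, 84, 1199 and 34. The intracellular fatty-acid carrier fabp1b.2 had 7, 2, 765 and 221 counts. Over 19 photoreceptor genes outside the set the summed level was 30.3, 5438, 10736 and 14.5 CPM, and over 18 neuronal genes 898, 2517, 3317 and 52.9 CPM; their part in the head values was not tested.

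Counts on antibody genes came mostly from the adult libraries. Of the 64 immunoglobulin and T cell receptor genes listed, 52 were in the set, and 30 of these had a count. They summed to 2, 1, 581 and 121 counts. Most came from ighm, with 2, 0, 520 and 103 counts and a head level 4.38 times that of the tail (3.54 to 5.47). The variable segment ighv14-1 had 0, 0, 10 and 1. A class I histocompatibility gene, si:ch73-213j4.4, which lies inside the tapasin gene tpsn of the 24 hpf tables, had 0, 5, 817 and 294 counts, a head level 178 times that of the larvae (75.9 to 549).

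Other families had few counts, whatever the share of their genes detected; over the whole set 2235 genes (56.6%) had a count in some library. Chemosensory receptors made up 101 of the set out of 269 listed, and 23 had a count, with 0, 7, 27 and 1 counts in all. The odorant receptor or115-8 led with 4 counts in the head, and taar19j had 2. Of 18 NLR genes, sensors of innate immunity, 6 had a count. TRIM and finTRIM genes, which encode ubiquitin ligases and relatives, were detected in 20 of 21 cases but summed to only 33, 44, 108 and 100 counts. For 8 of 9 chemokine and interleukin genes a count was found, il8 having 5, 10, 19 and 2. No microRNA, ribosomal RNA, spliceosomal RNA or small nucleolar RNA gene was in the set.

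Some genes were far higher in the early libraries than in the adult parts. Cytokeratin 1, cyt1, a keratin of embryonic and larval skin, had 9018, 2774, 11 and 3 counts, or 915, 290, 1.25 and 0.393 CPM. Pool and larvae lay far above both adult parts, the larval level being 232 times the head level (129 to 465). Its neighbour si:dkeyp-113d7.7, krt17 in the gene name table, had 2694, 2385, 490 and 120 counts. Pool and larvae were close, the pool being 1.096 times the larvae (1.037 to 1.159) under TMM. Scaling by library totals moves the log2 ratio of larva over pool by 0.33, so which of them was higher depends on the scaling. The larval level was 4.47 times that of the head (4.06 to 4.94). Both overlap a single 24 hpf gene at 5986768 to 6004990 on chromosome 19, which had 4079 ± 1293 CPM (SD, n = 3).

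Of the genes highest in the pool, zgc:161979 (afp4 in the gene name table, a type IV antifreeze protein gene) had 6968, 843, 75 and 363 counts, a pool level 8.02 times that of the larvae (7.47 to 8.63). On chromosome 12 BX322603.2 had 956, 13, 0 and 0, and zgc:174855 had 596, 12, 0 and 0. Both lie inside intervals that the 24 hpf tables give to other genes. The notch1a entry, a Notch receptor locus of which the set's interval covers only 2051 bases, had 411, 7, 15 and 44 counts, 57.0 times higher in the pool than in the larvae (27.4 to 143). Its deposited FPKM differed far less, 72.4 in the pool and 13.4 in the larvae, a ratio of 5.40, so the size of this difference depends on the measure. The nucleosome-binding protein gene hmgn2 was highest in the pool and lowest in the tail, with 8947, 3224, 1067 and 262 counts or 908, 337, 121 and 34.3 CPM; each neighbour in that order differed beyond counting error.

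Several genes that were higher in the larvae than in the pool or the head have known roles. The digestive enzyme gene zgc:136461, ctrb.2 (chymotrypsinogen) in the gene name table, had 1, 296, 6 and 172 counts, a larval level 45.3 times that of the head (20.6 to 124) but only 1.37 times that of the tail (1.13 to 1.67). An enamelin gene listed as si:dkey-22i16.3, known in mammals for tooth enamel, had 2, 201, 36 and 28. TNNC2 (2 of 2), for the troponin C of fast muscle, had 8, 159, 411 and 57, a larval level 20.5 times that of the pool (10.1 to 48.3), while the head level was 2.81 times the larval one (2.34 to 3.40). On chromosome 16 the apolipoprotein genes apoc1l and apoc2, whose products ride on plasma lipoproteins, had 7126, 2723, 1609 and 3788 and 1644, 2462, 255 and 828 counts, so apoc1l was highest in the pool and apoc2 in the larvae.

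**Figure D4:**
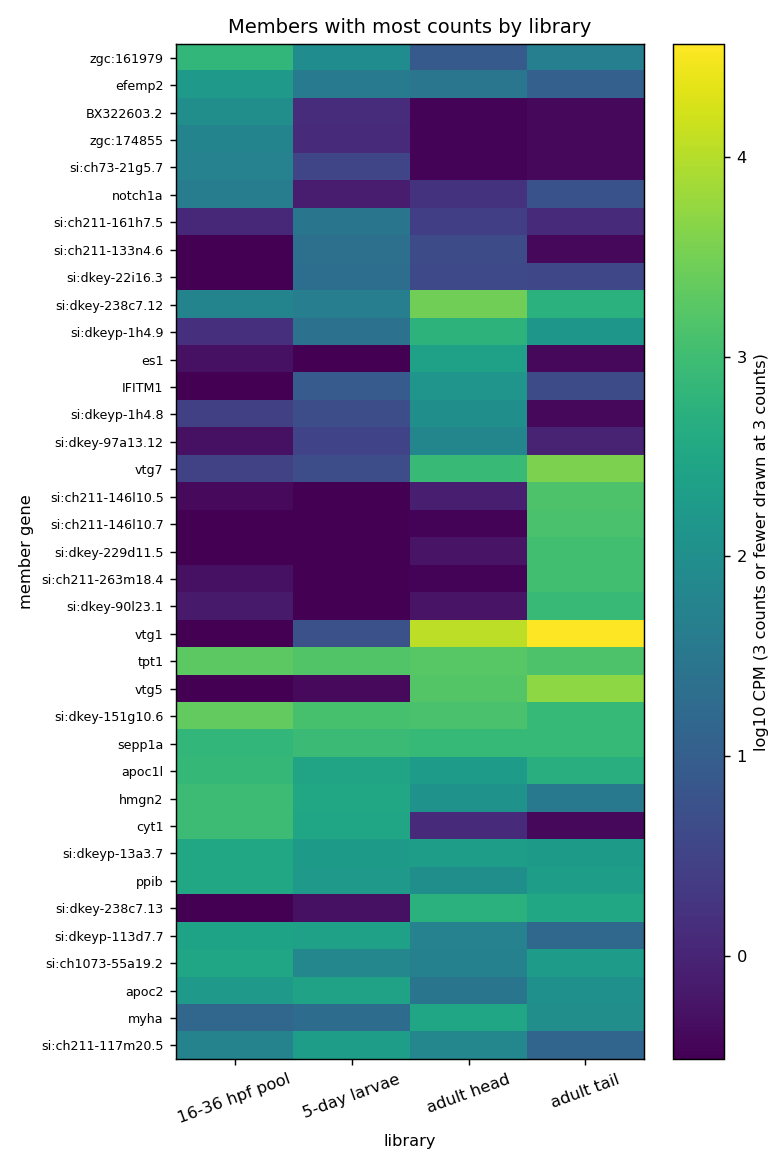
Level (log10 CPM, colour) of the genes of the set that were highest in 1 library or among the 10 with most counts in a library (rows), in the 4 libraries (columns), with 3 counts or fewer drawn at 3 counts. The vitellogenins are bright in head and tail, the si:ch211-146l10 and si:dkey-229d11 genes in the tail only, and tpt1 and sepp1a in all 4.

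Counted pair by pair, the share of the set past 4-fold was well above that of all listed genes for head over larva and tail over larva in the upward direction. All these shares, of the set and of all listed genes, are of genes with 20 or more counts in either library of the pair. For larva over pool, 605 genes of the set had 20 or more counts in either library; 115 (19.0%) were higher in the larvae and 35 (5.79%) lower, where over all listed genes 12.6% were higher and 4.44% lower. Scaling by library totals made this 130 higher and 19 lower in the set. The count over all listed genes was not made under that scaling. For head over larva, 120 of 678 (17.7%) were higher and 42 (6.19%) lower, against 7.52% and 5.07%. For tail over larva, 229 of 730 (31.4%) were higher and 159 (21.8%) lower, against 15.8% and 20.6%.

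Between the adult parts, 168 of 750 genes of the set (22.4%) were higher in the head and 180 (24.0%) in the tail, against 21.5% and 16.4% of all listed genes. Under library totals the set had 199 higher in the head and 164 higher in the tail. That scaling moves the ratios of all genes alike, and the count over all listed genes was not made under it. The median log2 ratio of the set was -0.04 for larva over pool, 0.29 for head over larva, 0.41 for tail over larva and 0.29 for head over tail, beside -0.15, -0.03, 0.08 and 0.08 over all listed genes. The first 3 pairs share the larval library, so their counts are not independent of one another.

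**Figure D5:**
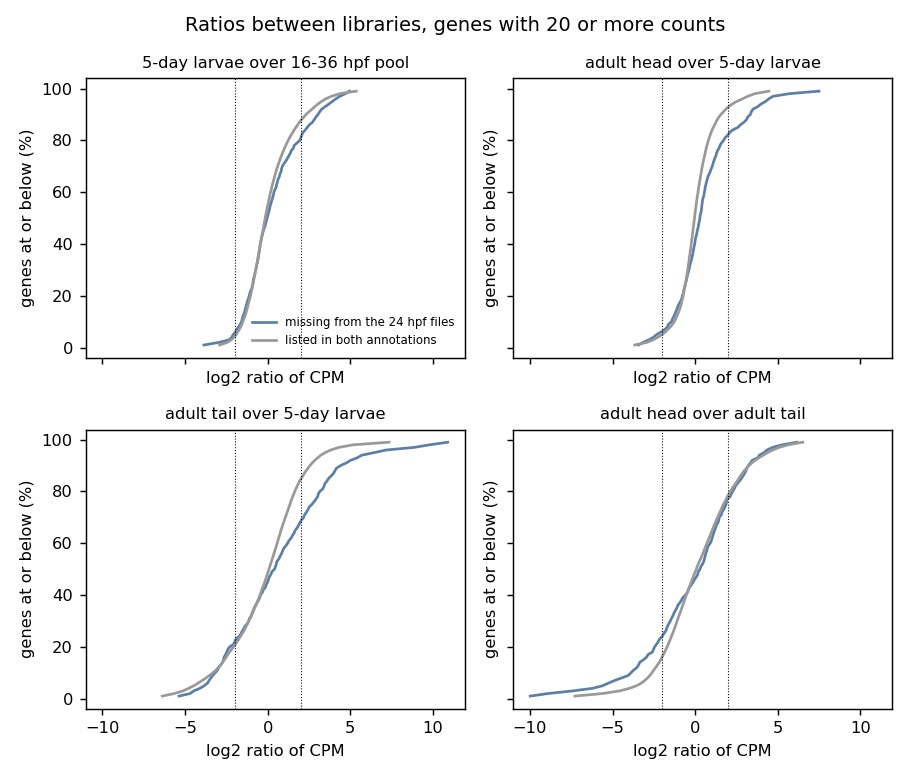
Percent of genes (y axis) at or below each log2 ratio of CPM (x axis) for 4 pairs of libraries, among genes with 20 or more counts in either library, for the set (blue) and shared genes (grey); dotted lines mark 4-fold. The blue curve runs to the right of the grey one above 4-fold for tail over larva, where 31.4% of the set lies, and to its left below 4-fold for head over tail, where 24.0% lies.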

How the data were processed

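The authors deposited a table of read counts per gene and a table of FPKM per gene for each library. Per the submitters' processing notes, the tools were HTSeq 0.5.3p3, Cufflinks 1.3.0, Bowtie 0.12.7, TopHat 1.4.1 and CASAVA 1.4, on the Zv9 assembly. Their settings, the annotation release and the use of strand were not given in the sources used here. TRIzol extraction of total RNA preceded a TruSeq mRNA library kit, per the labels. The 5 HTSeq summary rows were left out of totals. Intervals are those of the deposited FPKM tables, and where a gene had several its FPKM was summed (34 of the 3949). The gene name table matched 2136 of the 3949 IDs, and RefSeq symbols gave the RNA types.

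CPM used TMM factors (edgeR 4.0.16, R 4.3.3) of 0.892, 1.12, 1.097 and 0.912. Ratios carry exact conditional binomial intervals (SciPy 1.17.1). A gene was counted past 4-fold with 20 or more counts in either library and counts under 3 set to 3; the counting was tested on simulated data. Genes were named by fixed rules: the 10 with most counts per library, the 10 largest ratios each way per pair and the 6 highest above all other libraries (100 counts or more), the 2 leading genes per family, the 10 largest FPKM at 0 counts, and 10 replaced IDs. The genes and lists were chosen with earlier results of these data known. No sequences were used.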

Additional observations from a re-analysis of the deposited data

Results flagged for a closer look

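A signal was present in the FPKM tables for genes without any count. Of the 1714 genes of the set at 0 counts in all 4 libraries, 753 (43.9%) had an FPKM above 0 in some library, 196 (11.4%) an FPKM above 1 and 34 an FPKM above 10. Among the 5190 shared genes at 0 counts, 202 (3.89%) had an FPKM above 1. Of the 196 genes, 120 (61.2%) overlapped another gene listed in the same tables, against 34.8% of the whole set. Reads that fell on more than 1 gene were set aside as ambiguous in the count tables, 171552, 118621, 157550 and 306938 in the pool, larval, head and tail libraries. Many more were set aside as not uniquely aligned, 3857119, 3474463, 4397159 and 6380982 in the same order. The part of gene overlaps or of reads without a unique alignment in the zero counts was not tested.

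The extreme case was rps20, a protein of the small ribosomal subunit, listed with an interval of 103 bases at 59990937 to 59991039 on chromosome 7. Its FPKM was 2452.6 in the pool, 1389 in the larvae, 1374 in the head and 963 in the tail, all at 0 counts. This entry lies wholly inside the 24 hpf interval of a shared gene also named rps20. That shared gene had 82144, 67853 and 117889 counts in the 24 hpf samples. The reason for the 0 counts of the short entry in the 4 libraries was not tested. The green-cone opsin opn1mw2 had an FPKM of 0.0643, 4.76, 72.1 and 0. It lies inside the 24 hpf interval of the shared gene opn1mw1, which had 0, 3592, 498 and 0 counts in the 4 libraries. For ubb, a ubiquitin gene almost wholly inside the 24 hpf interval of a shared gene also named ubb, the values were 17.2, 52.7, 74.1 and 55.0. For hadhb, a mitochondrial fatty-acid enzyme, they were 31.7, 48.0, 40.0 and 41.8. The overlapping pair si:dkeyp-46h3.8 and si:ch73-25f10.1 on chromosome 19 reached 191.5 and 83.6 in the tail and stayed under 1 elsewhere.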

How the results depend on the processing

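The counts of genes past 4-fold (150, 162, 388 and 348 for larva over pool, head over larva, tail over larva and head over tail) stayed within 1.5 times under library totals, DESeq2 size factors, no minimum count, FPKM ratios, and without overlapping or short genes. A minimum of 50 counts gave 76 of 361, 100 of 388, 241 of 442 and 227 of 468 genes tested. The main counts had 605, 678, 730 and 750 tested, so part of the drop is the smaller number tested. A 2-fold threshold gave 309, 316 and 560 for the pairs other than tail over larva, which had 538. The share of counts without the leading gene was 1.34, 1.28, 2.31 and 3.14% in the pool, larvae, head and tail, and the share of summed FPKM, in which the vitellogenins are listed at 0 in both adult libraries, was 5.53, 4.76, 6.11 and 6.40%. Without vtg1, vtg5 and vtg7, a choice made after seeing the data, head and tail had 2.04 and 2.35%. An FPKM above 0 gave 2062, 2270, 2490 and 2262 detected genes, within 1.5 times of the counts. At 4 or more counts 864, 984, 1168 and 1029 genes were detected. Requiring an identical interval left 8 overlaps of 1191.

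No paired analysis was possible because each of the 4 groups that list these genes is 1 library. Depth limits any gene with fewer than 3 counts, and intervals cover counting error only, since reads without molecular identifiers are not independent molecules.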

Other observations

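Several uninterrupted runs of neighbouring genes of the set had few counts or none. On chromosome 22, from 19493979 to 19736079, 12 of 18 neighbours from si:dkey-21e2.3 to si:dkey-78l4.4 had a count, and together they had 1, 166, 161 and 46 counts in the pool, larval, head and tail libraries. A run of 12 on chromosome 1, from 58771717 to 58923684, was detected throughout, with 3, 12, 81 and 5 counts, most of them in the head. On chromosome 8 a run of 14 genes from 35268610 to 35524262, which starts and ends with entries named zgc:77614, had no count in any of the 4 libraries.

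Differences between adult parts also touched single genes outside those groups. The gene GRINA, for a membrane protein whose name refers to glutamate receptors, had 89, 322, 645 and 113 counts, a head level 4.96 times that of the tail (4.05 to 6.11). A gene listed as slc16a8, a transporter symbol, but as pdap1a in the gene name table had 1085, 510, 276 and 1193 counts, a tail level 4.98 times that of the head (4.36 to 5.69). PCDHAC2 (1 of 2), a protocadherin of neurons, had 199, 579, 363 and 3 counts, a head level 105 times that of the tail (35.7 to 512). With 1 library per group these ratios have no replicate check.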
